A study of Mus musculus with 23 samples.

Results

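Chemokines that dendritic cells make were followed as a group of 10 genes: Ccl24, Ccl22, Ccl17, Ccl3, Ccl4, Ccl5, Ccl9, Cxcl9, Cxcl10 and Cxcl16. The members were the probe sets whose annotated gene symbol was one of these names. Each of the 10 genes had 1 such probe set, and the 10 genes were among 19938 genes with a probe set of their own and among the 12157 genes that passed the filter on dim probe sets. That filter kept a probe set that lay above the median intensity of its array on at least 3 arrays. Ccl24 and Ccl9 lay above it on 11 of 23 arrays each, and Ccl3 and Ccl4 on 23 of 23.

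The study compared splenic dendritic cells of wild-type (WT) mice with those of mice labelled Bcl6cKO, here cKO, a conditional knockout of Bcl6. Sorted conventional dendritic cells of type 1 (cDC1), conventional dendritic cells of type 2 (cDC2) and plasmacytoid dendritic cells (pDC) were each run on Affymetrix arrays. WT had 3 arrays for each cell type, and cKO had 4 arrays of cDC1, 5 of cDC2 and 5 of pDC. The Cre driver, the age and sex of the mice, any stimulation and the surface markers of the sort are not stated in the labels. The spleens of all groups were digested with collagenase and DNase before sorting. No source used here says whether each array came from its own mouse, so the p-values rest on a spread between arrays that could be partly technical.

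Levels are log2 of the deposited linear intensity. The error of a level is the SD over arrays, and the error of a difference is its limma standard error. Array medians lay between 29.3 and 41.2 in linear units and fell into 3 sets of arrays, called A, B and C from the lowest to the highest; WT and cKO arrays of each cell type were present in all 3. The sets were found from the arrays' own medians, and no label names them. In WT, arrays 1, 2 and 3 of each cell type were those of sets A, B and C. Replicate number and array set therefore cannot be told apart in WT. All 10 cDC1 markers exceeded the array median on every cDC1 array, all 9 measured pDC markers did so on every pDC array, and of 10 cDC2 markers 8 to 10 did so on the cDC2 arrays. Such counts separated cell types poorly. On cDC2 arrays 6 to 9 cDC1 markers also exceeded it, and on pDC arrays 7 to 8 cDC2 markers did. The summed intensity of cDC1 markers was 13079 to 20456 in cDC1 and at most 4236 elsewhere. That of pDC markers was 19638 to 34065 in pDC and at most 3114 elsewhere. That of cDC2 markers did not separate cDC2 from pDC, at 3870 to 5410 in WT cDC2 and 4746 to 6805 in WT pDC. The Bcl6 probe set differed between cKO and WT by 0.96 ± 0.35 (log2, standard error) in cDC1, 0.69 ± 0.33 in cDC2 and -0.15 ± 0.33 in pDC (limma adjusted p 0.598, 0.756 and 1). Since it may lie outside the deleted part, it gave no check of the labels.

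Chemokines are small secreted proteins that guide leukocytes by binding receptors on their surface, and dendritic cells use them to draw T cells, NK cells and granulocytes to themselves. BCL6 represses transcription, is known above all for its role in the germinal centre reaction, and binds a DNA motif that resembles the site of STAT proteins. CCL24 attracts eosinophils through CCR3, and CCL22 and CCL17 attract regulatory and type 2 helper T cells through CCR4. CXCL9 and CXCL10 are interferon-induced ligands of CXCR3, and CXCL16 is a membrane-bound ligand of CXCR6.

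Promoters are shown for 2 pairs of neighbouring chemokine genes, since within each pair the members bind the same receptor while their differences between groups were unlike in size. The sequences are RefSeq's (GRCm38.p6), given 5′ to 3′ on the strand of the gene, and run from 250 bases before the transcript start to 50 bases after it. Of the 10 members, 6 had such a sequence. Capitals mark matches to any of 4 motifs searched on both strands: the BCL6 motif TTCCTAGAA, the gamma-activated site TTCNNNGAA bound by STAT proteins (which contains the BCL6 motif), the interferon-stimulated response element GAAANNGAAA, and the kappa B site. Ccl22 and Ccl17 lie on the forward strand at chr8:94745434-94745733 and chr8:94810203-94810502, and Cxcl9 and Cxcl10 on the reverse strand at chr5:92328030-92328329 and chr5:92348840-92349139.
Ccl22: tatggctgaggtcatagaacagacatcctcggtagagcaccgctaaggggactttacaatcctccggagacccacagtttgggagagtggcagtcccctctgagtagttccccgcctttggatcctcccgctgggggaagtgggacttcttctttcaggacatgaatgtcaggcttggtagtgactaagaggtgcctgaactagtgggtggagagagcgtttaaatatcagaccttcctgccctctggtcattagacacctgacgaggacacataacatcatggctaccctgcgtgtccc
Ccl17: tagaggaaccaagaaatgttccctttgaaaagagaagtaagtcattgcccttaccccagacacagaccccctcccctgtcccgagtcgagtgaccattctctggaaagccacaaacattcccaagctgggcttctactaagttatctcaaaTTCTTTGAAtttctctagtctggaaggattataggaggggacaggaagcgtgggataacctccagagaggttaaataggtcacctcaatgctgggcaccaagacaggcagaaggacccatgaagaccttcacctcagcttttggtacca
Cxcl9: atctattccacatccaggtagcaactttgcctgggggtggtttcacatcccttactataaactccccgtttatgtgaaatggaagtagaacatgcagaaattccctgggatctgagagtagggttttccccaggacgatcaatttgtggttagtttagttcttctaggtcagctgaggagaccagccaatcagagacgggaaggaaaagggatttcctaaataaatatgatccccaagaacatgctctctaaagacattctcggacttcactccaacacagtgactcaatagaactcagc
Cxcl10: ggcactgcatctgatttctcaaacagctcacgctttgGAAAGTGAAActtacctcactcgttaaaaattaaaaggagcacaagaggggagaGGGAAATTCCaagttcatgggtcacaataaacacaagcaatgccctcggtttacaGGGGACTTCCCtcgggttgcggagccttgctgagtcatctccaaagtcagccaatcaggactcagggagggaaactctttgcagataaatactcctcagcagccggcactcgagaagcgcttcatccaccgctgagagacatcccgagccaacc

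The Ccl17 window held a gamma-activated site that starts 99 bases before the transcript start. The Cxcl10 window held an interferon-stimulated response element 213 bases before the start and kappa B sites 159, 104 and 103 bases before it, the last pair overlapping. No match to the 4 motifs was found in the Ccl22 and Cxcl9 windows, which says only that these letters are not in those bases. Of 32851 promoters of the same length, 0.411% held the BCL6 motif, 8.3% a gamma-activated site, 3.44% an interferon-stimulated response element and 8.46% a kappa B site. These matches are descriptions of sequence, and no binding was measured.

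Among the 10 chemokines, Ccl24 rose in cKO cDC1 and Ccl22 rose in cKO cDC2. No member changed in pDC. By limma across all genes with Benjamini-Hochberg adjustment at a threshold of 0.05, 1 of 10 members was called in cDC1, where 0.831% of all genes tested were called, and 1 of 10 in cDC2, where 1.56% were. In pDC 0 of 10 were called against 0.0329% of all genes, and 0 of 10 had an unadjusted p under 0.05. The median member difference, cKO minus WT on the log2 scale, was 0.23 in cDC1, 0.51 in cDC2 and 0.057 in pDC, and the median over all genes was 0.056, 0.070 and 0.052. The arrays measure RNA of sorted pools, in which fewer expressing cells and less RNA per cell cannot be told apart.

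**Figure D1:**
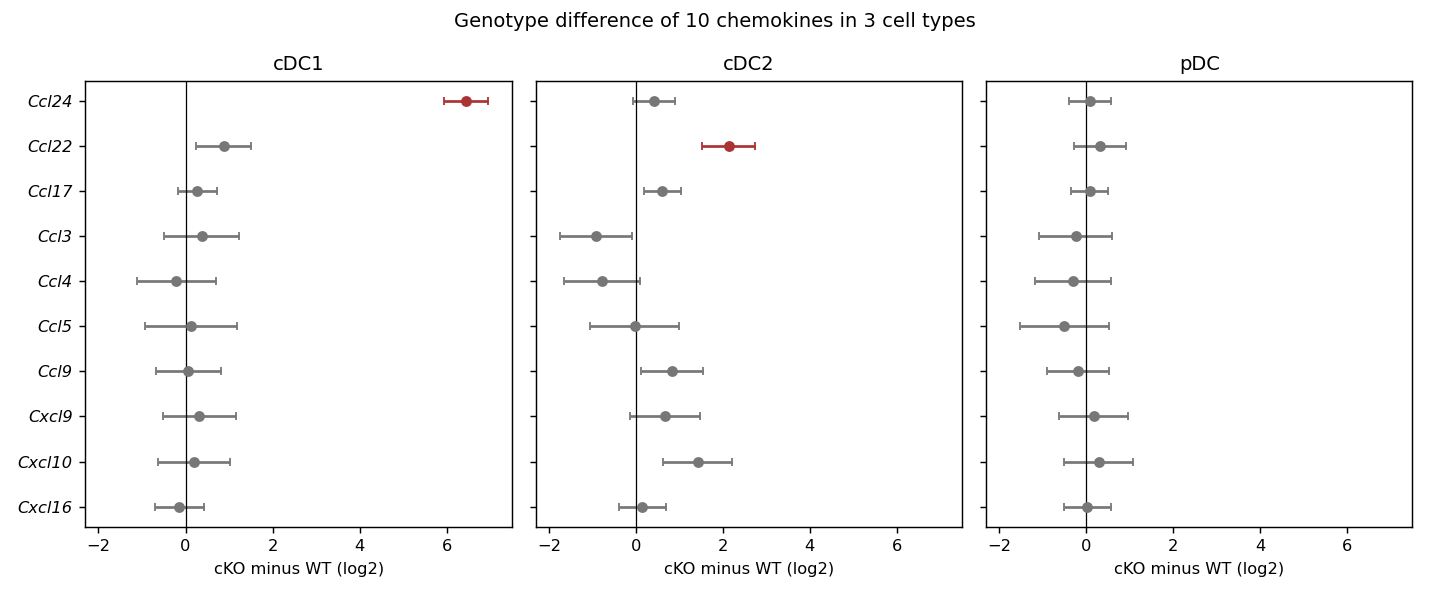
Difference in level between cKO and WT (log2, x axis) for each of 10 chemokines (y axis) in cDC1, cDC2 and pDC; points are estimates, bars are 95% confidence intervals and red marks a limma adjusted p under 0.05. Ccl24 stands at 6.45 in cDC1 and Ccl22 at 2.13 in cDC2, and every interval in pDC includes 0.

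Ccl24 (probe set 10534493), the eosinophil-attracting chemokine also called eotaxin-2, was measured at log2 levels of 4.53, 4.83 and 5.07 in WT cDC1. In cKO cDC1 its levels were 10.89, 11.06, 11.52 and 11.56. The WT cDC1 arrays were all below their array's median and the cKO cDC1 arrays all far above it, with no overlap. The difference was 6.45 ± 0.24 (log2, standard error; 87.3-fold; limma adjusted p = 2.8e-14). Because the WT level was below the array median, the fold is also given against that median: the cKO cDC1 mean lay 73.1-fold above it. Within array sets A, B and C the difference was 6.36, 6.23 and 6.47.

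In cDC2 the level of Ccl24 was 4.79 ± 0.22 in WT (SD, n = 3) and 5.20 ± 0.19 in cKO (SD, n = 5), a difference of 0.41 ± 0.23 (standard error; limma adjusted p = 1). In pDC it was 4.88 ± 0.55 in WT (SD, n = 3) and 4.97 ± 0.26 in cKO (SD, n = 5). On these 16 arrays the level ran from 4.24 to 5.46, around the array medians, and the 4 cKO cDC1 arrays alone stood high. The tests of the difference between cell types bore on the same arrays: the genotype effect in cDC2 minus that in cDC1 was -6.04 ± 0.34 (limma adjusted p = 1.2e-10), and that in cDC1 minus that in pDC was 6.36 ± 0.34 (limma adjusted p = 4.1e-11). Ccl24 was the only member called in each of these comparisons, which called 0.28% and 0.329% of all genes.

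Ccl24 is made by macrophages, eosinophils and epithelial cells in other settings, so markers of other cells are given beside it. In cKO cDC1 the summed intensity of 10 macrophage markers was 418 to 709, and 414 to 665 in WT cDC1. Of the 9 macrophage markers tested in cDC1, Adgre1 rose (1.27 ± 0.30, limma adjusted p = 0.041). The summed intensity of 10 markers of basophils, eosinophils and mast cells was 197 to 295 in cKO cDC1 and 211 to 259 in WT cDC1, and 0 of the 4 that were tested were called by limma, with 0 of 4 at an unadjusted p under 0.05. Of the 10 macrophage markers, Vcam1, Spic, Hmox1 and Adgre1 were above the array median on 7 of 7 cDC1 arrays, C1qb on 4, C1qa on 2, C1qc on 1, and Mertk, Cd163 and Cd5l on 0 of 7. Of 10 cDC2 markers, 3 rose in cKO cDC1, namely the lectin Cd209a by 3.20, the signal-regulatory receptor Sirpa by 2.27 and the integrin Itgam by 2.14, while 0 of 10 cDC1 markers were called by limma (1 of 10 had an unadjusted p under 0.05). The summed intensity of the cDC2 markers was 1862 to 2142 in cKO cDC1, against 1106 to 1255 in WT cDC1 and 3870 to 5410 in WT cDC2. Ccl24 itself was not above the array median in any WT cDC2 array. The part of these markers in the Ccl24 difference was not tested.

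**Figure D2:**
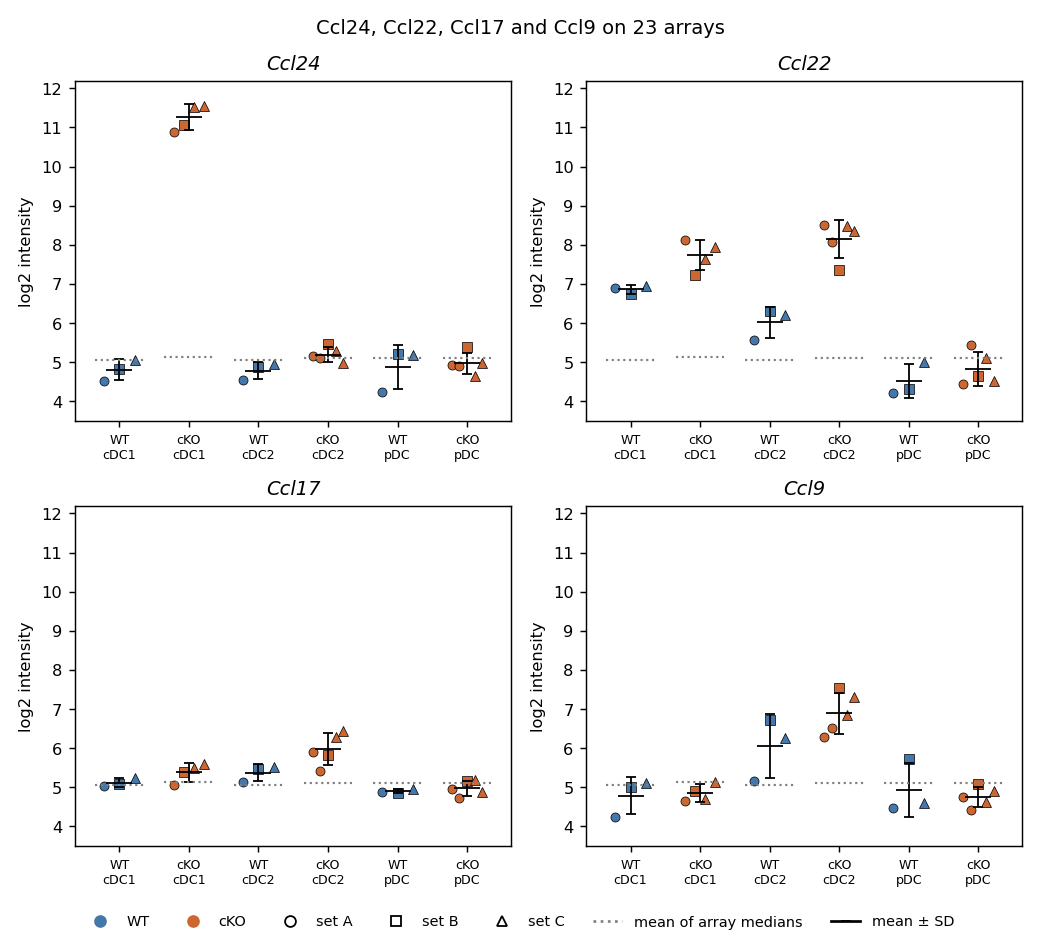
Log2 intensity (y axis) of Ccl24, Ccl22, Ccl17 and Ccl9 on each of 23 arrays by group (x axis), with group means and SD as bars, array sets A, B and C by symbol and the mean of the array medians as a dotted line. Ccl24 is near 11 in the 4 cKO cDC1 arrays and near 5 in all other groups, and Ccl22 in cDC2 moves from about 6 in WT to about 8 in cKO.

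Ccl22 (probe set 10574213), a CCR4 ligand, was measured at 5.57, 6.30 and 6.20 in WT cDC2. In cKO cDC2 the levels were 8.51, 8.08, 7.35, 8.49 and 8.35. The groups did not overlap, and the lowest cKO array exceeded the highest WT array by more than the SD of either group. The difference was 2.13 ± 0.29 (standard error; 4.39-fold; limma adjusted p = 8.6e-05). The values by array set were 2.72 in A, 1.05 in B and 2.22 in C.

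In cDC1 the level of Ccl22 was 6.90, 6.74 and 6.95 in WT and 8.14, 7.24, 7.65 and 7.94 in cKO. These groups did not overlap either, but the difference of 0.88 ± 0.30 (standard error; 1.84-fold; 95% interval 0.25 to 1.50) did not pass the test (limma adjusted p = 0.49). In pDC Ccl22 was at or below the array median on 7 of 8 arrays, at 4.51 ± 0.44 in WT (SD, n = 3) and 4.83 ± 0.43 in cKO (SD, n = 5). The genotype effect in cDC2 exceeded that in pDC by 1.81 ± 0.41 (limma adjusted p = 0.044, where 0.485% of all genes were called), and Ccl22 was the only member called there. That call held in 5 of 23 fits that each left out 1 array, with adjusted p from 0.00854 to 0.222, and was lost without the 3 WT arrays numbered 1 (limma adjusted p = 0.258, difference 1.74), with no filter (0.0612) and with array weights (0.113). The effect in cDC2 exceeded that in cDC1 by 1.26 ± 0.42, which did not pass (limma adjusted p = 0.56).

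The order of Ccl22 levels over the groups was therefore WT pDC, cKO pDC, WT cDC2, WT cDC1, cKO cDC1 and cKO cDC2, from lowest to highest. In WT, cDC1 stood 0.84 ± 0.32 above cDC2 (limma adjusted p = 0.17; 0.034 with the replicate number as a block). In cKO, cDC1 stood 0.42 ± 0.27 below cDC2 (limma adjusted p = 0.51). The difference between the neighbours WT pDC and cKO pDC was 0.32 ± 0.29 (limma adjusted p = 1) and, like that between cKO cDC1 and cKO cDC2, did not pass the test, and the step from cKO pDC to WT cDC2 was not tested.

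Ccl17 (probe set 10574226), the other CCR4 ligand and a close neighbour of Ccl22 on chromosome 8, was much nearer to the array median. Its levels in WT cDC2 were 5.13, 5.47 and 5.53. In cKO cDC2 they were 5.90, 5.42, 5.83, 6.30 and 6.44, and the array at 5.42 fell within the WT range. The difference of 0.61 ± 0.21 (standard error) did not pass the test (limma adjusted p = 0.25) and was 0.53 in set A, 0.36 in B and 0.85 in C. With the array set as a term in the fit it did pass (limma adjusted p = 0.0124), where 559 genes were called in all, against 190 in the main model. In cDC1 the difference was 0.27 ± 0.22 and in pDC 0.08 ± 0.21.

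The gene between this pair, Cx3cl1, encodes fractalkine, a membrane-anchored chemokine. Its difference in cDC2 was 0.88 ± 0.35 (standard error; limma adjusted p = 0.47), from 5.62 ± 0.62 in WT (SD, n = 3) to 6.50 ± 0.55 in cKO (SD, n = 5). Arl2bp, on the other side of Ccl22, differed by 0.53 ± 0.33 in cDC2 and was not called either. Beside Ccl24 on chromosome 5, the neighbour Rhbdd2 differed by 0.05 ± 0.27 in cKO cDC1, while Hip1, which encodes an endocytic adaptor and was singled out after its values were seen, rose by 1.76 ± 0.29 (limma adjusted p = 0.001). Hip1 differed by 0.74 ± 0.28 in cDC2 (limma adjusted p = 0.36).

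Markers of other cells also differed between cKO and WT cDC2, and are given here because Ccl22 rose in the same arrays. Of 9 macrophage markers tested, Mertk rose by 2.40 and Cd163 by 0.76, and the summed intensity of the list of 10 was 662 to 1247 in cKO and 535 to 1130 in WT. Of 9 monocyte and neutrophil markers, Ccr2 rose by 1.94 and Lyz2 by 1.44 and Csf3r fell by 1.29, with sums of 982 to 2602 in cKO and 485 to 2256 in WT. Of 7 NK markers tested, Il2rb rose by 2.08 and 6 were not called, with 2 of 7 at an unadjusted p under 0.05. The sums over 10 NK markers, Il2rb among them, were 692 to 960 in cKO and 307 to 545 in WT. The sums without Il2rb were not computed. Of the 10 NK markers, 4 to 7 were above the array median on the cKO arrays and 2 to 6 on the WT arrays. Prf1 and Il2rb were above it on 8 of 8 cDC2 arrays, Nkg7 on 7, Ncr1 and Gzma on 5, Klre1 on 4, Gzmb on 3, and Klrb1c, Eomes and Klra8 on 0 of 8. Of the macrophage markers, Vcam1, Spic and Adgre1 were above the array median on 8 of 8 cDC2 arrays, C1qb on 6, Mertk and Hmox1 on 5, Cd163 and C1qc on 3, C1qa on 2 and Cd5l on 0 of 8. Of 10 cDC2 markers, 4 were called higher and 2 lower in cKO. The largest of these differences were rises of Clec10a by 2.41, Mgl2 by 2.0 and Itgam by 1.25, and a fall of Clec4a4 by 2.72. Of 10 cDC1 markers 1 was called, Naaa, which rose by 1.10 (limma adjusted p = 0.0247). The part of all these markers in the Ccl22 difference was not tested.

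**Figure D3:**
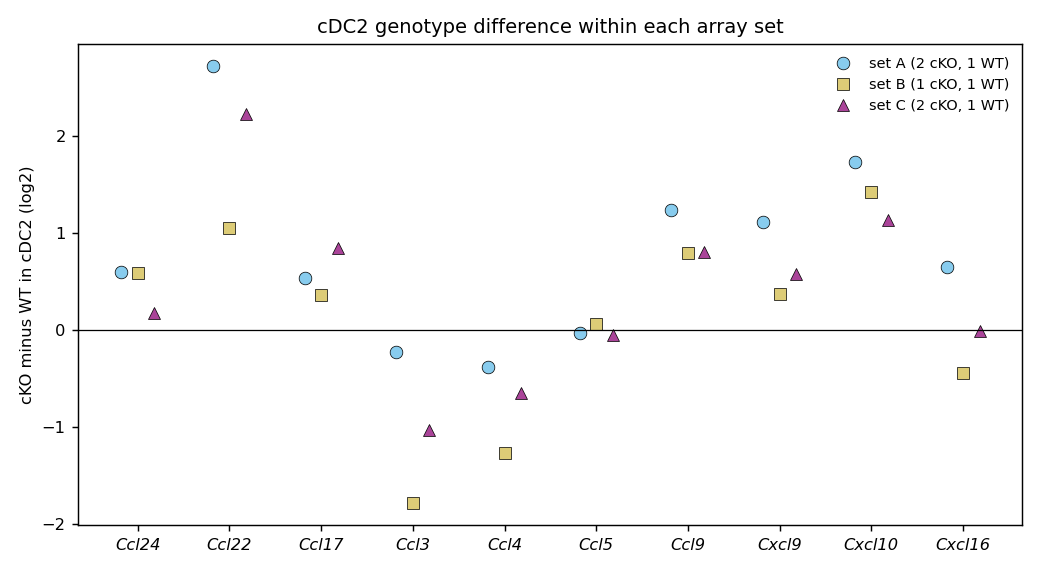
Difference between cKO and WT cDC2 (log2, y axis) for each chemokine (x axis) within array sets A, B and C, from 2, 1 and 2 cKO arrays against 1 WT array each. Ccl24, Ccl22, Ccl17, Ccl9, Cxcl9 and Cxcl10 lie above 0 and Ccl3 and Ccl4 below 0 in each set, and Ccl5 and Cxcl16 lie on both sides.

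The inflammatory CC chemokines Ccl3, Ccl4 and Ccl5 attract monocytes, NK cells and activated T cells and are quickly induced in activated dendritic cells. Ccl3 (probe set 10389231) was high on all arrays. Its levels in WT cDC2 were 10.80, 11.60 and 11.43, and in cKO cDC2 10.10, 11.05, 9.82, 10.07 and 10.74. The ranges overlapped at 1 array, and the difference of -0.92 ± 0.40 (standard error) did not pass (limma adjusted p = 0.61). It was -0.23 in set A, -1.78 in B and -1.03 in C.

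In cDC1 Ccl3 was 8.77, 10.30 and 10.04 in WT and 9.81, 9.67, 10.47 and 10.33 in cKO, a difference of 0.37 ± 0.42. In pDC it was 10.19 ± 0.64 in WT (SD, n = 3) and 9.94 ± 0.71 in cKO (SD, n = 5). WT array 1 was the lowest array of its group in each cell type. In WT, Ccl3 was lower in cDC1 than in cDC2 by 1.58 (limma adjusted p = 0.034). That call was lost when WT cDC1 array 1, WT cDC2 array 2 or WT cDC2 array 3 was left out (adjusted p up to 0.265, difference then -1.11 at the smallest), without the 3 WT arrays numbered 1 (limma adjusted p = 0.174) and with no filter (0.0572).

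Ccl4 (probe set 10379721), the close relative of Ccl3 that lies next to it on chromosome 11, did not pass the test of genotype in any cell type. Its levels in cKO cDC2 were 7.20, 8.24, 8.22, 8.59 and 8.49, against 8.10, 9.48 and 9.19 in WT cDC2. The difference was -0.77 ± 0.42 (standard error; limma adjusted p = 0.96), and cKO cDC2 array 1 stood below the other 4. In pDC, levels were 8.79, 10.47 and 9.99 in WT and 9.23 to 9.99 in 4 of the cKO arrays, with the other at 8.99. Ccl4 was the only member to be lower in cKO cDC2 than in cKO pDC by the test, by 1.30 (limma adjusted p = 0.012).

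Ccl5 (probe set 10389207), also called RANTES and abundant in cytotoxic lymphocytes, was at similar levels in both genotypes of the conventional dendritic cells. Levels were 8.08, 7.89 and 8.34 in WT cDC1, and 8.05 to 8.50 in cKO cDC1. They were 8.68, 8.91 and 9.01 in WT cDC2, and 8.61 to 9.02 in cKO cDC2. The genotype difference was 0.13 ± 0.51 (standard error) in cDC1 and -0.03 ± 0.49 in cDC2.

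In pDC the Ccl5 arrays scattered. Levels were 5.15, 7.88 and 5.51 in WT and 5.39, 5.98, 6.85, 4.0 and 6.19 in cKO. The WT pDC array at 7.88 also had the highest summed intensity of 10 NK cell markers, 1316 against 289 and 334 on the other WT pDC arrays and 251 to 447 on the cKO pDC arrays, and it was above the array median for 10 of the 10 markers. On the same array, WT pDC array 2, Ccl3 (10.80), Ccl4 (10.47) and Ccl9 (5.74) were also at their highest among the WT pDC arrays. In cDC1, WT array 2 was likewise the highest WT array for Ccl3 (10.30) and Ccl4 (9.36), though not for Ccl9. In cDC2, WT array 2 was the highest WT array for Ccl3, Ccl4 and Ccl9 (11.60, 9.48 and 6.73). The NK marker sums of these cDC1 and cDC2 arrays were 487 and 545. The pDC difference of Ccl5 was -0.50 ± 0.49 (standard error; limma adjusted p = 1) with WT pDC array 2 and 0.35 without it. The part of NK cell RNA in these values was not tested.

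**Figure D4:**
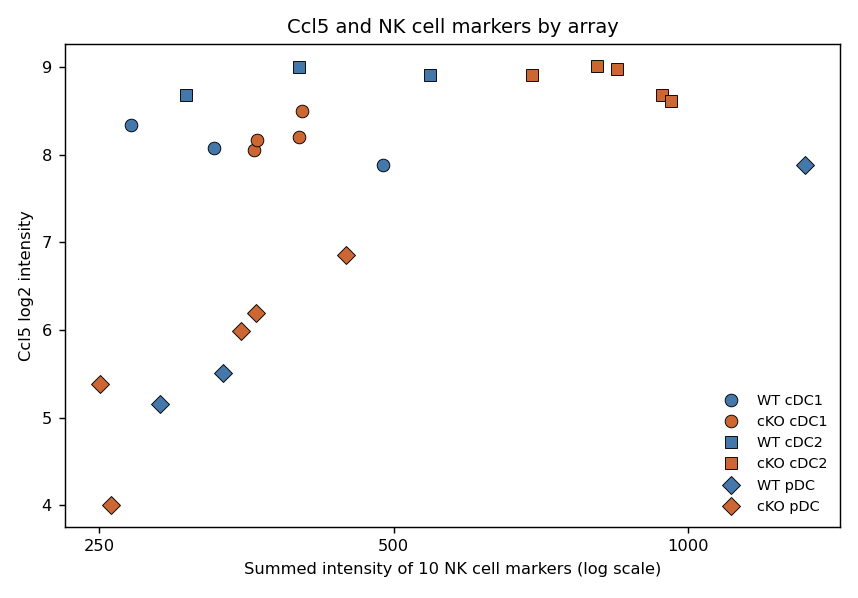
Log2 intensity of Ccl5 (y axis) against the summed linear intensity of 10 NK cell markers (x axis, log scale) on each of 23 arrays, by group. Among the pDC arrays the WT array with a marker sum of 1316 has the highest Ccl5 level, 7.88, while cDC1 and cDC2 arrays lie between 7.89 and 9.02 at all marker sums. The sum includes Il2rb, which was higher in cKO than in WT cDC2.

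Ccl9 (probe set 10389214), a mouse chemokine that binds CCR1, was above the array median mainly in cDC2. Its levels were 5.16, 6.73 and 6.27 in WT cDC2 and 6.28, 6.50, 7.53, 6.84 and 7.32 in cKO cDC2. The WT array at 6.73 lay within the cKO range and the other 2 lay below it. The difference was 0.84 ± 0.34 (standard error; limma adjusted p = 0.51), with 1.23 in set A, 0.80 in B and 0.81 in C. With the array set as a term it passed (limma adjusted p = 0.0105), in the fit that called 559 genes against 190 in the main model. In cDC1 Ccl9 was 4.79 ± 0.48 in WT (SD, n = 3) and 4.85 ± 0.22 in cKO (SD, n = 4), and in pDC 4.94 ± 0.69 and 4.76 ± 0.26 (SD, n = 3 and 5). In cKO it was therefore 2.04 lower in cDC1 than in cDC2 and 2.13 higher in cDC2 than in pDC (limma adjusted p = 7.1e-05 and 7.1e-06).

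**Figure D5:**
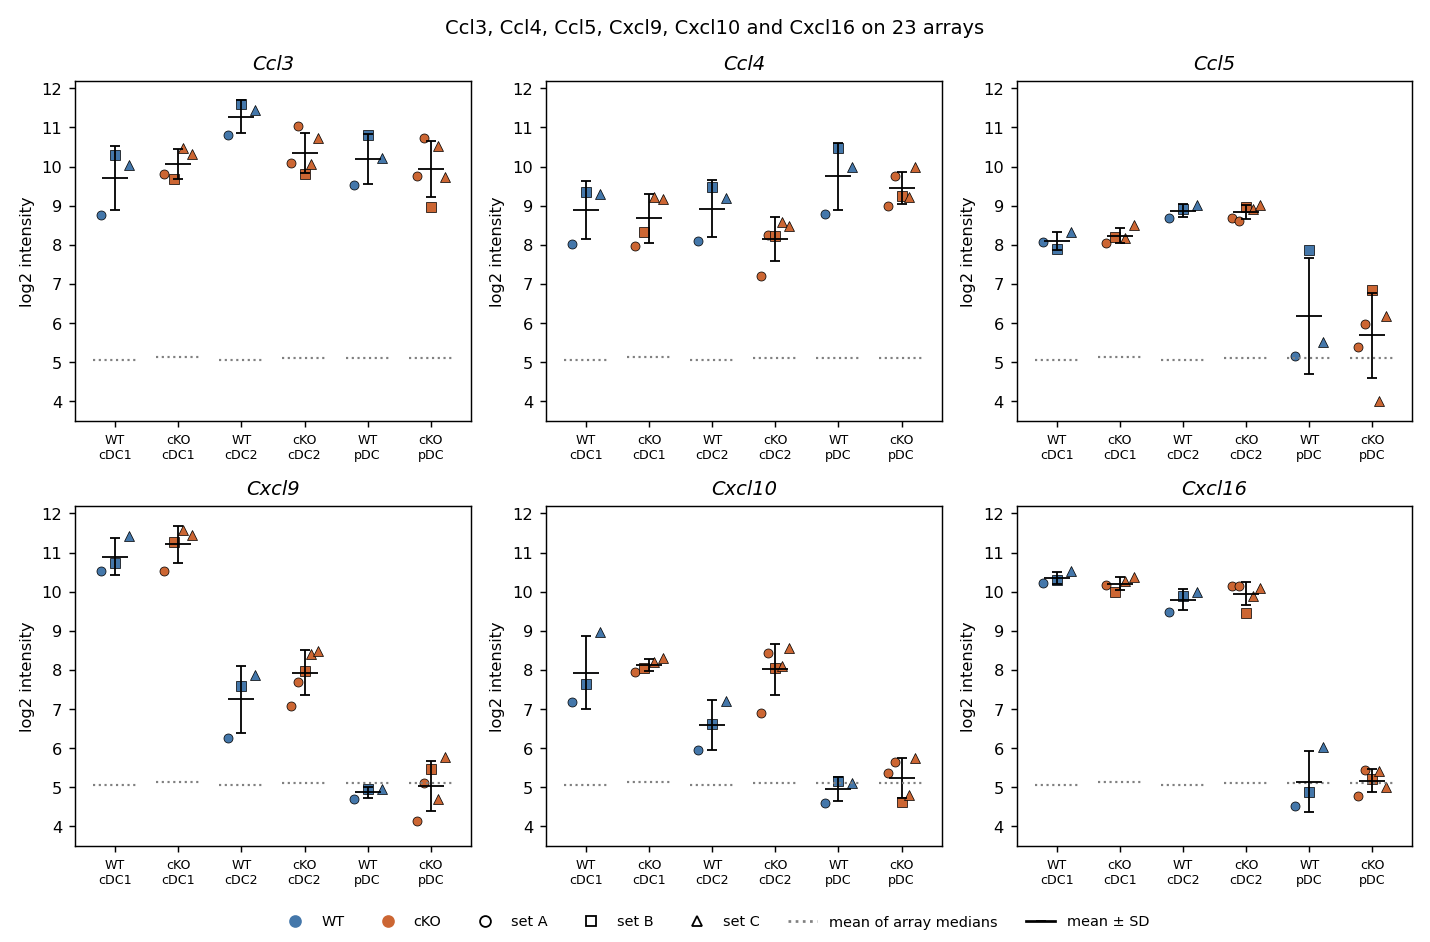
Log2 intensity (y axis) of Ccl3, Ccl4, Ccl5, Cxcl9, Cxcl10 and Cxcl16 on each of 23 arrays by group (x axis), with group means and SD as bars, array sets A, B and C by symbol and the mean of the array medians as a dotted line. Cxcl9 falls from about 11 in cDC1 to about 5 in pDC in both genotypes, Cxcl16 is near 10 in cDC1 and cDC2 and near 5 in pDC, and Ccl3 and Ccl4 are high in all groups.

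Cxcl9 (probe set 10531407) and Cxcl10 (probe set 10531415) recruit effector T cells and NK cells through CXCR3. Cxcl9 was 10.52, 10.74 and 11.43 in WT cDC1 and 10.52, 11.27, 11.59 and 11.46 in cKO cDC1. In cDC2 it was 6.27, 7.59 and 7.87 in WT and 7.08, 7.69, 7.97, 8.40 and 8.49 in cKO. The genotypes overlapped in both, with differences of 0.31 ± 0.41 and 0.68 ± 0.39 (standard error) that did not pass the test. In pDC it sat near the array median, at 4.87 ± 0.15 in WT (SD, n = 3) and 5.04 ± 0.64 in cKO (SD, n = 5).

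Cxcl10 was 5.94, 6.62 and 7.20 in WT cDC2 and 6.91, 8.44, 8.05, 8.09 and 8.57 in cKO cDC2. Of the cKO arrays 4 lay above every WT array and array 1 lay within the WT range. The difference of 1.42 ± 0.38 (standard error; 2.68-fold; 95% interval 0.63 to 2.22) did not pass (limma adjusted p = 0.069), with 1.73 in set A, 1.42 in B and 1.13 in C. It did pass when cKO cDC2 array 1 was left out (limma adjusted p = 0.0137), when WT cDC1 array 3 was left out (0.032), with arrays centred on their medians (0.0389), with the array set as a term (0.0147) and with array weights (0.0294). The fit with the array set as a term called 559 genes in all, against 190 in the main model. The range of adjusted p over the fits that each left out 1 array was 0.0137 to 0.458.

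In cDC1 Cxcl10 was 7.19, 7.64 and 8.97 in WT and 7.95 to 8.31 in cKO, a difference of 0.19 ± 0.40 (standard error). In pDC it was 4.95 ± 0.32 in WT (SD, n = 3) and 5.24 ± 0.50 in cKO (SD, n = 5). In WT, Cxcl10 thus stood 1.35 ± 0.43 higher in cDC1 than in cDC2 (limma adjusted p = 0.068; 0.00498 with the replicate number as a block). In cKO the same difference was 0.12 ± 0.35 (limma adjusted p = 0.95). The genotype effect in cDC2 minus that in cDC1 was 1.23 ± 0.56, which did not pass (limma adjusted p = 1).

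Cxcl16 (probe set 10387890), which also serves as a scavenger receptor on antigen-presenting cells, was at 10.22, 10.29 and 10.53 in WT cDC1 and 9.99 to 10.37 in cKO cDC1. It was at 9.49, 9.90 and 10.00 in WT cDC2 and 9.46 to 10.15 in cKO cDC2. On pDC arrays it was 4.53, 4.87 and 6.02 in WT and 4.78 to 5.45 in cKO. The genotype differences were -0.15 ± 0.27, 0.15 ± 0.26 and 0.03 ± 0.26 (standard error) in cDC1, cDC2 and pDC, all within the spread between arrays.

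Across cell types of WT mice, the CXC chemokines, Ccl22 and Ccl5 set conventional dendritic cells apart from pDC. Between WT cDC1 and WT pDC, 5 of 10 members were called, all higher in cDC1, against 13.5% of all genes: Cxcl9 by 6.03 ± 0.43, Cxcl16 by 5.21 ± 0.29, Cxcl10 by 2.98 ± 0.43, Ccl22 by 2.35 ± 0.32 and Ccl5 by 1.92 ± 0.55 (log2, standard error; limma adjusted p from 6.5e-12 to 0.019). The median member difference was 1.07, and 0.050 over all genes. For 3 of the 5 the pDC level was below the array median, and set against that median the folds were 55.3 for Cxcl9, 7.10 for Cxcl10 and 3.37 for Ccl22. With the replicate number as a block, Ccl4 was also called, lower in cDC1 by 0.86 (limma adjusted p = 0.0133). The Ccl5 call was lost in 4 of 23 fits that each left out 1 array (adjusted p up to 0.132), with quantile normalization (limma adjusted p = 0.0588) and without the 3 WT arrays numbered 1 (limma adjusted p = 0.255, difference 1.42). Without WT pDC array 2, the array with the high NK marker sum, the difference was 2.77.

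Between WT cDC2 and WT pDC, 5 of 10 were called, all higher in cDC2, where 12.7% of all genes were called. Cxcl16 differed by 4.66 ± 0.29, Ccl5 by 2.68 ± 0.55, Cxcl9 by 2.38 ± 0.43, Cxcl10 by 1.64 ± 0.43 and Ccl22 by 1.51 ± 0.32 (standard error; limma adjusted p from 9e-11 to 0.011). Set against the array median, above the pDC level of 3 of these, the difference was 2.14 for Cxcl9, 1.48 for Cxcl10 and 0.92 for Ccl22 (1.89-fold). The Cxcl10 call was lost in 2 of 23 fits that each left out 1 array (adjusted p up to 0.0778). With the replicate number as a block 8 of 10 were called: Ccl3 and Ccl9 were added as higher in cDC2 by 1.09 and 1.11, and Ccl4 as lower by 0.83 (limma adjusted p 0.0118, 0.0231 and 0.0263). Over all genes the calls ran from 885 to 3539 across the alternatives (1548 in the main model). The count under this block is not given here, so the 8 of 10 has no share beside it.

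Between WT cDC1 and WT cDC2, 2 of 10 were called, where 6.05% of all genes were. Cxcl9 was 3.65 ± 0.43 higher in cDC1 (standard error; 12.6-fold; limma adjusted p = 2.7e-06), and Ccl3 was lower there, as given above. With the replicate number as a block 7 of 10 were called, in a fit that called 1977 of 12157 genes, against 736 in the main model. Cxcl10, Ccl22 and Cxcl16 were then higher in cDC1 by 1.35, 0.84 and 0.55, and Ccl9 and Ccl5 lower by 1.27 and 0.76 (limma adjusted p from 0.00498 to 0.0392).

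In cKO mice the comparison of cDC1 with cDC2 called 3 of 10 members against 8.95% of all genes. Ccl24 was 6.06 ± 0.21 and Cxcl9 3.28 ± 0.36 higher in cDC1 (standard error), and Ccl9 was lower there. Between cKO cDC1 and cKO pDC 6 of 10 were called, all higher in cDC1, against 20.4% of all genes: Ccl24 by 6.29, Cxcl9 by 6.17, Cxcl16 by 5.03, Ccl22 by 2.91, Cxcl10 by 2.89 and Ccl5 by 2.55. Between cKO cDC2 and cKO pDC 8 of 10 were called against 20.8%, 7 of them higher in cDC2. These were Cxcl16 by 4.78, Ccl22 by 3.32, Ccl5 by 3.15, Cxcl9 by 2.88, Cxcl10 by 2.77, Ccl9 by 2.13 and Ccl17 by 1.0, with Ccl4 lower. Where the lower group lay below the array median, the difference over that median was 1.76 for Ccl9 between cDC1 and cDC2. Between cDC1 and pDC it was 6.15, 6.10 and 2.63 for Ccl24, Cxcl9 and Ccl22, and between cDC2 and pDC 3.04, 2.81, 1.78 and 0.87 for Ccl22, Cxcl9, Ccl9 and Ccl17. The comparisons within a genotype share arrays, so their calls are not independent of each other.

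Of 28 other chemokine genes listed, 26 had a probe set of their own, 11 passed the filter, and 0 of 11 were called by limma in any of the 3 cell types between cKO and WT (0, 2 and 0 of 11 at an unadjusted p under 0.05 in cDC1, cDC2 and pDC). Ccl6, a monocyte and macrophage chemokine that lies between Ccl9 and Ccl3, differed by 0.89 ± 0.41 (standard error) in cDC2, from 8.15 ± 0.83 to 9.04 ± 0.64 (SD, n = 3 and 5). Xcl1, a product of NK and T cells that attracts XCR1-bearing cDC1, differed by -1.21 ± 0.60 in cDC2. Neither passed the test (limma adjusted p = 0.70 and 0.82).

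Of 8 receptor genes for the members, 7 had a probe set of their own and 5 were tested. Ccr1, a receptor for Ccl9, rose in cDC1 from 3.64 ± 0.11 (SD, n = 3) to 6.88 ± 0.55 (SD, n = 4), and in cDC2 from 4.26 ± 0.77 (SD, n = 3) to 7.69 ± 0.15 (SD, n = 5). Those differences were 3.24 ± 0.34 and 3.43 ± 0.32 (standard error; limma adjusted p = 1.7e-06 and 5.9e-07). In WT, Ccr1 was above the array median on 0 of 3 cDC1 arrays and 1 of 3 cDC2 arrays. Cxcr6, the receptor for Cxcl16, rose in cDC2 by 1.70 ± 0.31 (limma adjusted p = 0.0022), from 5.26 ± 0.84 to 6.96 ± 0.50 (SD, n = 3 and 5). Cxcr3, the receptor for Cxcl9 and Cxcl10, was at 9.35 ± 0.41 and 9.37 ± 0.49 in WT and cKO cDC1 (SD, n = 3 and 4) and was not called between genotypes. Of 5 tested genes for proteins that cleave or bind chemokines, and of 28 tested genes of the interferon, STAT, NF-kappa B and cytokine receptor pathways that induce them, 0 were called by limma in any cell type between cKO and WT. At an unadjusted p under 0.05 these were 0, 1 and 0 of 5 and 1, 2 and 3 of 28 in cDC1, cDC2 and pDC, and the median differences of the 2 lists lay between -0.036 and 0.32.

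Across the 23 arrays Ccl22 and Ccl17 had a Pearson r of 0.75, Cxcl9 and Cxcl10 of 0.87, Cxcl10 and Cxcl16 of 0.89, and Ccl3 and Ccl4 of 0.25. After each group's mean was taken off, the same pairs had an r of 0.21, 0.64, 0.22 and 0.65 respectively, so that Ccl3 with Ccl4 went from the lowest of these 4 values to the highest. Both sets of values describe 23 points that share array sets, and the first also cell types. The genes whose levels followed Ccl24 most closely over 23 arrays were Gbp2b (r = 0.94), 1700006J14Rik (0.87) and Ptger2 (0.86). For Ccl22 they were Tiam1 (0.96), Socs2 (0.96) and Sema4a (0.94), for Ccl17 Ltb4r1 (0.92), Clec4n (0.90) and H2-M2 (0.89), and for Ccl9 Fabp5 (0.93), Cish (0.93) and Cxcr6 (0.92).

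For Cxcl9 the closest were Aif1 (0.99), Arpc2 (0.98) and Naaa (0.97), for Cxcl10 Ctbp2 (0.95), Depdc7 (0.94) and 1700025G04Rik (0.94), and for Cxcl16 Slamf7 (0.99), Lrrk2 (0.99) and Plbd1 (0.99). For Ccl5 they were Prim1 (0.93), Cd63 (0.93) and Hmgb2 (0.93). The closest genes to Ccl3 were Bbs9 (0.81), Npl (0.71) and Tada2a (0.69), and to Ccl4 Ikbip (0.84), Rsbn1l (0.83) and Atf7 (0.83), so these 2 members, which were high in every group, had the loosest matches.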

How the data were processed

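RNA of sorted splenic dendritic cells was measured on 23 Affymetrix arrays in 6 groups, WT and cKO of cDC1, cDC2 and pDC. The deposited table holds linear intensities per probe set, from 3.785 to 13980.7, made by the authors with RMA in Affymetrix Expression Console, per the submitters' processing notes (versions not given in the sources used here). GEO's annotation names 1 gene for 21789 of the 28853 probe sets, several for 1621 and none for 5443 here. Intensities were taken to log2, with no further scaling. The number of arrays limits the precision.

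Each gene was represented by its probe set with the highest mean, and genes above the array median on at least 3 arrays were tested (12157). One limma model (3.58.1, R 4.3.3) of 6 group means on all arrays, with 17 residual degrees of freedom, gave the genotype differences, their differences between cell types, and the cell type differences. P-values were adjusted over all genes by Benjamini-Hochberg and called at 0.05. The model was first run on simulated data with known changes. The simulated noise was independent between arrays and so did not mimic the array sets, and no result here rests on that run.

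All 10 members were named; of each other list, up to 4 genes called between genotypes; and for each member the 3 genes of highest Pearson r over 23 arrays. The members and gene lists were chosen with earlier results of these data known, and so were the array sets, split at medians of 31.3 and 36. Replicate numbers were taken to pair samples where all same-numbered pairs deviated together (r over 0.1): the 3 WT cell type comparisons (r 0.38 to 0.70) and cKO against WT cDC1 (0.44 to 0.54). In these comparisons same-numbered arrays also lay in the same array set, so a shared replicate and a shared set cannot be told apart. In the other comparisons the lowest r was -0.30. Alternatives were other normalizations, filters and probe set summaries, replicate and array set terms, array weights, and leaving out arrays.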

Additional observations from a re-analysis of the deposited data

Results flagged for a closer look

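The genotype difference of Ccl24 was not the same in the 3 cell types. That in cDC2 minus that in cDC1 was -6.04 on the log2 scale, and that in cDC1 minus that in pDC was 6.36, both past the test of the difference itself (limma adjusted p = 1.2e-10 and 4.1e-11). The genotype difference of Ccl22 in cDC2 exceeded that in pDC by 1.81 (limma adjusted p = 0.044).

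The Ccl4 level of cKO cDC2 array 1, 7.20, stood apart from the other 4 arrays of its group, at 8.22 to 8.59: its gap to the nearest was 0.733 of the group's range, above Dixon's 95% critical value of 0.71 for 5 samples. Of 30 groups of 4 or 5 arrays examined over the 10 genes, 1 was past the critical value, and chance passes about 1 in 20.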

How the results depend on the processing

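Ccl24 in cDC1 (difference 6.23 to 6.71) and Ccl22 in cDC2 (1.91 to 2.33) were called under each alternative in which they were tested. Under the stricter filter, above the median on at least 12 arrays, Ccl24 and Ccl9 were not tested, so that 0 members were called between genotypes in cDC1 and in both comparisons of cell types by Ccl24, and 1 between cKO cDC1 and cDC2. Between genotypes in cDC2, 2 members were called with median centring and with array weights. With the array set as a term 4 were called, in a fit that called 559 genes in all, against 190 in the main model. The difference of the cDC2 genotype effect from that in pDC called 0 with no filter, 0 without the 3 WT arrays numbered 1 and 0 with array weights. Between WT cDC1 and cDC2, 4 were called with quantile normalization, 4 with median centring, 1 with no filter, 5 with a random replicate block (correlation 0.44) and 4 with the array set as a term. Leaving out 1 array at a time gave 1 to 2 calls between genotypes in cDC2, 0 to 1 for its difference from pDC and 1 to 4 between WT cDC1 and cDC2.

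With the replicate number as a block, 7 members were called between WT cDC1 and cDC2 and 8 between WT cDC2 and pDC, as given beside those results, and Ccl4 was added between WT cDC1 and pDC. The block changed no other member's call; Ccl22 in cDC2, where the numbers share only a label, gave limma adjusted p = 0.0289. The number of genes called in the whole table moved more. Across alternatives that kept all groups, it ran from 68 to 271 between genotypes in cDC1 (101 in the main model), from 100 to 559 in cDC2 (190) and from 0 to 26 in pDC (4). For the differences of genotype effect it ran from 17 to 148 for cDC2 against cDC1 (34), 25 to 95 for cDC1 against pDC (40) and 24 to 218 for cDC2 against pDC (59). Between WT cells it ran from 434 to 1977 for cDC1 against cDC2 (736), 1059 to 3604 for cDC1 against pDC (1643) and 885 to 3539 for cDC2 against pDC (1548), and between cKO cells from 884 to 2454 (1088), 2269 to 6303 (2485) and 2189 to 4768 (2526) in the same order. The replicate block gave 148, 100 and 0 calls between genotypes in cDC1, cDC2 and pDC. The array set as a term gave most of these highest counts, and leaving out the 3 WT arrays numbered 1 most of the lowest.

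Differences between genotypes that changed sign were all uncalled. These were Ccl9 in cDC1 with median centring (-0.0029), with the replicate block (-0.03) and without the 3 WT arrays numbered 1 (-0.21), and, under the last, Ccl3 (-0.10) and Cxcl10 (-0.18) in cDC1, Cxcl16 in cDC2 (-0.0014), and Ccl24 (-0.23) and Cxcl16 (-0.27) in pDC. Ccl5 in cDC2 was 0.06 with the array set as a term and 0.0041 with array weights, which also gave Ccl4 in cDC1 (0.31) and Ccl17 (-0.0078), Ccl3 (0.18) and Cxcl9 (-0.06) in pDC. With 1 array left out the ranges were, in cDC1, Ccl3 -0.10 to 0.67, Ccl4 -0.64 to 0.02, Ccl9 -0.21 to 0.23 and Cxcl10 -0.18 to 0.71; in cDC2, Ccl5 -0.12 to 0.04 and Cxcl16 -0.0014 to 0.27; in pDC, Ccl24 -0.23 to 0.26, Ccl3 -0.57 to 0.07, Ccl4 -0.78 to 0.06, Ccl5 -1.01 to 0.35, Ccl9 -0.41 to 0.22, Cxcl9 -0.01 to 0.40 and Cxcl16 -0.27 to 0.47. The cause of these changes was not tested. Of 2461 values over 75 results, 2334 kept direction and call, 34 lost and 57 gained a call. Levels near the array median limit what the dim members can show.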

Other observations

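Chemokines outside the group of 10 that were measured above the array median on most conventional dendritic cell arrays included Ccl6 and Ccl2. Ccl2, a monocyte attractant, was at 7.60 ± 0.91 in WT cDC1 (SD, n = 3), 6.42 ± 0.78 in WT cDC2 (SD, n = 3) and 5.66 ± 0.27 in WT pDC (SD, n = 3). The neutrophil attractant Cxcl2 was at 7.02 ± 1.66 in WT cDC2 (SD, n = 3) and 7.61 ± 0.76 in cKO cDC2 (SD, n = 5). Xcl1 ranged from 4.90 to 8.63 over the 3 WT pDC arrays. Of the B cell markers, Cd22 rose in cKO cDC1 by 2.22 (limma adjusted p = 1.4e-05), and 8 of 9 were not called there. Of 7 T cell markers, 9 pDC markers and 4 erythroid and platelet markers tested, 0 were called by limma between genotypes in any cell type; at an unadjusted p under 0.05 these were 1, 3 and 0 of 7, 1, 1 and 0 of 9, and 0 of 4 in each of cDC1, cDC2 and pDC.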
